A study of Mus musculus with 30 samples.

Results

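Pou5f1, Nanog, Sox2, Zfp42, Klf2, Klf4, Esrrb, Sall4, Tfcp2l1 and Prdm14 encode transcription factors of the pluripotent cells of the early embryo. The 10 genes were taken as a named set, and each was read from the transcript cluster that carried its symbol alone and had the highest mean over the 30 arrays. Each had exactly 1 such cluster, and all 10 were among the 18090 genes kept for testing out of 30142 genes with a cluster.

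The signals came from 30 single mouse blastocysts of B6C3F1 x CD1 matings, each on its own Affymetrix array. All 30 embryos were fertilized in vivo and then cultured. The first group were 10 twins that each grew from 1 blastomere of a divided 2-cell embryo in GM501, and the second were their 10 sisters, grown from the other blastomere in SAGE 1-Step. Both are media for assisted human reproduction. The third group were 10 undivided controls, each cultured alone in the mouse medium KSOM(aa), in which all 30 embryos had also spent the time before the 2-cell stage. Every blastocyst was lysed whole at 4 days post coitum after 96 h of culture. The labels put a twin blastocyst at roughly 40 to 50 cells and an undivided one at roughly 80. Since they give neither matings nor days of culture, p-values speak to the spread among these embryos, which may share both. Twins and controls thus differed in medium, in division and in cell number at once, which cannot be told apart. Each lysate held trophectoderm, primitive endoderm and epiblast together, so that fewer cells of a type and less RNA per cell cannot be told apart either.

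In the mouse blastocyst an outer trophectoderm encloses the inner cell mass, whose cells become epiblast or primitive endoderm. POU5F1 (OCT4), SOX2 and NANOG hold the epiblast in a pluripotent state, and POU5F1 and SOX2 bind side by side at a joint DNA motif near many of their target genes, their own among them. KLF2, KLF4, ESRRB, TFCP2L1 and PRDM14 are further parts of this network in mouse embryonic stem cells, where KLF4 and TFCP2L1 act downstream of the cytokine LIF and STAT3. SALL4 partners with POU5F1 and NANOG, and Zfp42 (Rex1) is a marker of the naive state.

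The joint motif can be seen in the sequence before Nanog. The following 300-base windows, from 250 bases before to 50 after the RefSeq start site in GRCm38.p6, are the first Nanog window and the Sox2 and Zfp42 windows, shown because they were the members' windows that held the octamer bound by POU5F1. Capitals mark the octamer, ATGCAAAN on either strand, and in Nanog the whole joint motif, CATTGTN followed directly by the octamer, in which CATTGTN is the SOX site. They lie at chr6:122707239-122707538 on the plus strand, chr3:34649745-34650044 on the plus strand and chr8:43306960-43307259 on the minus strand, and are written 5′ to 3′ along the gene.
Nanog: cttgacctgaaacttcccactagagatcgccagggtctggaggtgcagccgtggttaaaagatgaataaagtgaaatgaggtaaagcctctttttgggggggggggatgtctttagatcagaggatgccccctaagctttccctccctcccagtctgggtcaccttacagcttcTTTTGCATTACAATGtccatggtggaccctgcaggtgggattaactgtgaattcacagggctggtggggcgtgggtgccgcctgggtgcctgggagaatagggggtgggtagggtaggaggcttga
Sox2: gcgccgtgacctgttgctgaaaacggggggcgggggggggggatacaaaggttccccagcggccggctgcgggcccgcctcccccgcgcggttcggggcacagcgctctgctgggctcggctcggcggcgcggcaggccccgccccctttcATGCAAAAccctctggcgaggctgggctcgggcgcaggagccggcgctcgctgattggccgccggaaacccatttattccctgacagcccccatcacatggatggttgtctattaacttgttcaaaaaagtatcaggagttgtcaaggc
Zfp42: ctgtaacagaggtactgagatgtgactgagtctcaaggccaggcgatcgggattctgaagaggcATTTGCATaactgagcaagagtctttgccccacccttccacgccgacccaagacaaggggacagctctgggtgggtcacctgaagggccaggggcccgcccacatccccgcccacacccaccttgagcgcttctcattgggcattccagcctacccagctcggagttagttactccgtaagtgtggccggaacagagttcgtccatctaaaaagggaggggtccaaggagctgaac
The table of RefSeq windows held 11 windows of 8 members, with none for Prdm14 or Sall4. In the 32851 windows of all genes the octamer was present in 4.61%, and the joint motif in 2 windows, which were the overlapping Nanog windows. It ran from base -76 to base -62 of the first Nanog window, counted from the start site, on the opposite strand. The octamer ran from -99 to -92 in the Sox2 window, on the strand of the gene, and from -186 to -179 in that of Zfp42, on the opposite strand. The KLF motif GGGTGTGG was present in 3.56% of all windows and, among the members, in that of Zfp42, from base -75 to base -68 on the opposite strand. The motifs were chosen with the letters of these windows already seen, and a match is a description of the letters, not of binding in these embryos.

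The signals are log2 values after robust multi-array averaging (RMA), so a difference of 1 log2 unit means a doubling, and levels are comparable within a gene only. The median of all clusters on an array averaged 4.88 ± 0.24 for the GM501 twins, 4.89 ± 0.22 for the SAGE twins and 4.64 ± 0.029 for the controls (SD, n = 10 each). Both arrays of pairs 1 to 6 had medians above the highest control median of 4.69, and those of pairs 7 to 10 did not, apart from the SAGE twin of pair 8 at 5.12. These sets of 12 and 8 arrays are no groups of the study. No label names a batch, and the sets were drawn from the arrays in earlier results of these data. Results are given over all pairs and within each set, beside the same 10 controls. Whether twins of pairs 1 to 6 differed from those of pairs 7 to 10 was not tested as a contrast, and the part of the array median in the results was not tested.

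**Figure D1:**
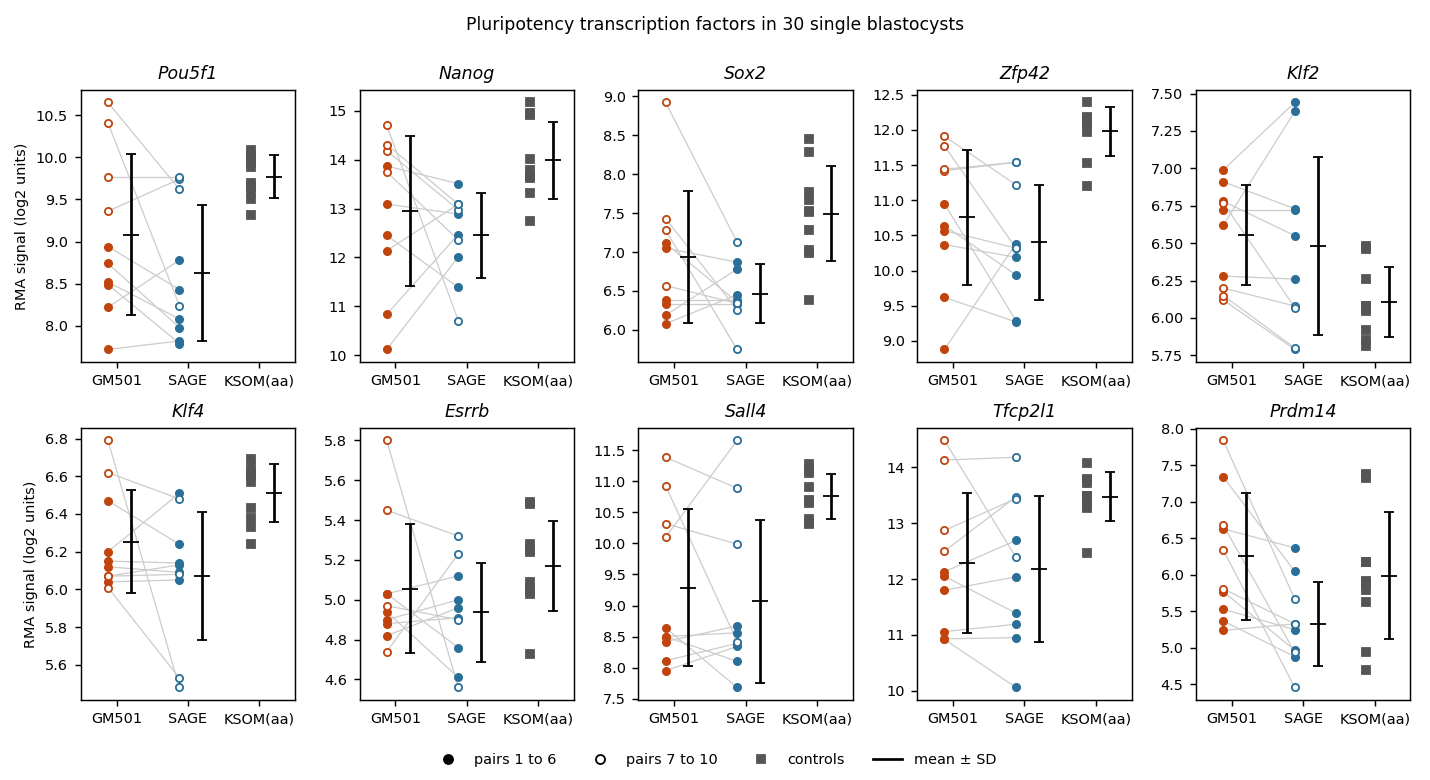
RMA signal (log2 units) of each factor in each blastocyst, by group, with GM501 twins left, SAGE twins in the middle and KSOM(aa) controls right. Filled circles are twins of pairs 1 to 6, open circles twins of pairs 7 to 10, squares controls, grey lines join co-twins and bars give the mean ± SD (n = 10 each). All Sall4 values of pairs 1 to 6 lie between 7.68 and 8.67, below the lowest control at 10.31.

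Against the controls, 3 of the factors fell in GM501 twins and 7 in SAGE twins. In GM501 twins limma called 4 of the 10, with Zfp42, Sall4 and Tfcp2l1 lower and Klf2 higher. The same test called 13.8% of all 18090 genes, 6.97% lower and 6.81% higher. In SAGE twins it called 7 factors, all lower, beside 16.1% of all genes, 8.63% lower and 7.5% higher: Pou5f1, Nanog, Sox2, Zfp42, Klf4, Sall4 and Tfcp2l1. The median difference of the 10 factors was -0.62 in GM501 twins, against 0.11 over all genes, and -1.08 in SAGE twins, against 0.11 again. Both comparisons use the same 10 controls and are not independent. Each of the 10 factors had overlapping ranges in each twin group and the controls; of all genes 0.111% lay wholly lower in GM501 twins and 0.111% in SAGE twins.

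Pou5f1 (chr17:35506032-35510777; gene coordinates are of GRCm38.p6), which encodes the POU factor without which no inner cell mass is maintained, ran from 7.72 to 10.65 in GM501 twins with a median of 8.84. In SAGE twins its signal ran from 7.79 to 9.77 with a median of 8.34, and in controls from 9.32 to 10.09 with a median of 9.79. Twins of both media therefore held low values that no control had, and some GM501 twins lay above every control. The difference was -0.69 ± 0.29 log2 units in GM501 twins (SE, n = 10 each; limma, adjusted p = 0.0998) and -1.14 ± 0.25 in SAGE twins (adjusted p = 0.011). In pairs 7 to 10 the GM501 twins had 9.36, 10.41, 9.77 and 10.65 and the SAGE twins 9.74, 8.24, 9.77 and 9.62. Within that set the differences were 0.28 ± 0.21 and -0.43 ± 0.24, neither called, and within pairs 1 to 6 they were -1.33 ± 0.16 and -1.62 ± 0.15, both called.

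Nanog (chr6:122707489-122714633), the homeobox gene of the epiblast, had signals from 10.12 to 14.70 in GM501 twins (median 13.42), from 10.71 to 13.51 in SAGE twins (median 12.68) and from 12.74 to 15.17 in controls (median 13.73). The lowest values were those of the GM501 twin of pair 1 and the SAGE twin of pair 8, and the groups overlapped. Its difference was -1.04 ± 0.51 in GM501 twins (adjusted p = 0.138) and -1.54 ± 0.35 in SAGE twins (adjusted p = 0.0122). GM501 twins of pairs 7 to 10, at 13.75, 14.70, 14.18 and 14.31, lay within the control range. Their SAGE sisters, at 12.36, 10.71, 12.98 and 13.09, lay below the control median, 2 of them below every control. The differences in this set were 0.25 ± 0.38 for GM501 and -1.70 ± 0.47 for SAGE, and neither was called over all genes (adjusted p = 0.819 and 0.0883). In pairs 1 to 6 they were -1.90 ± 0.50 and -1.43 ± 0.37, both called.

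Sox2 (chr3:34649995-34652461), the HMG-box partner of POU5F1, had a median of 6.81 in GM501 twins (6.08 to 8.92), 6.37 in SAGE twins (5.75 to 7.13) and 7.53 in controls (6.39 to 8.45). No SAGE twin reached the control median, while 1 GM501 twin, that of pair 10 at 8.92, lay above every control. The differences were -0.56 ± 0.31 in GM501 twins (adjusted p = 0.187) and -1.03 ± 0.22 in SAGE twins (adjusted p = 0.00956). Within pairs 7 to 10 they were 0.059 ± 0.39 and -1.12 ± 0.33, neither called, and within pairs 1 to 6 -0.97 ± 0.27 and -0.96 ± 0.25, both called. A call in SAGE and none in GM501 for Pou5f1, Nanog and Sox2 does not show that the media differed, since the direct test between co-twins passed for none of them.

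Zfp42 (chr8:43295067-43307009) encodes the zinc finger protein REX1. Its signal ran from 8.88 to 11.91 in GM501 twins (median 10.80), from 9.27 to 11.54 in SAGE twins (median 10.32) and from 11.20 to 12.39 in controls (median 12.09). Every twin lay below the control median. The gene fell by 1.22 ± 0.30 in GM501 twins (adjusted p = 0.0188) and by 1.58 ± 0.27 in SAGE twins (adjusted p = 0.0045), and both calls held with each blastocyst left out in turn. Restricted to pairs 7 to 10, the differences were -0.35 ± 0.18 and -0.83 ± 0.23, which were not called.

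Sall4 (chr2:168748332-168767201), a spalt-like zinc finger gene needed for growth of the inner cell mass, separated the pair sets. GM501 twins had 7.95 to 8.64 in pairs 1 to 6 (median 8.46) and 10.32, 10.93, 10.10 and 11.39 in pairs 7 to 10. SAGE twins had 7.68 to 8.67 in pairs 1 to 6 (median 8.37) and 9.99, 8.42, 11.66 and 10.89 in pairs 7 to 10. Controls had 10.31 to 11.28 (median 10.69). Twins of pairs 1 to 6 thus lay wholly below the controls, and of pairs 7 to 10 only the SAGE twin of pair 8 lay at their level. Over all pairs Sall4 fell by 1.47 ± 0.39 in GM501 twins (adjusted p = 0.0232) and by 1.69 ± 0.40 in SAGE twins (adjusted p = 0.0146). Within pairs 7 to 10 the differences were -0.074 ± 0.24 and -0.52 ± 0.41, neither called. Without pair 8 the SAGE difference was 0.088.

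Klf2 (chr8:72319062-72321654) and Klf4 (chr4:55527137-55532475) encode Krüppel-like factors that back each other up in mouse embryonic stem cells. Of the factors called over all pairs, Klf2 was the 1 called higher. It had 6.12 to 6.99 in GM501 twins (median 6.67), 5.79 to 7.44 in SAGE twins (median 6.41) and 5.81 to 6.48 in controls (median 6.08). In pairs 1 to 6, 5 of 6 GM501 twins and 5 of 6 SAGE twins lay above every control. In pairs 7 to 10 this held for 1 of 4 GM501 twins and 0 of 4 SAGE twins, and 2 of these 4 SAGE twins lay below every control. Klf2 rose by 0.45 ± 0.13 in GM501 twins (adjusted p = 0.0326). Centring the arrays ended this call, at a difference of 0.21 (adjusted p = 0.246), and over all its alternatives the adjusted p ran from 0.000648 to 0.569. In SAGE twins the difference was 0.38 ± 0.20 (adjusted p = 0.154). Among pairs 7 to 10 it was 0.20 ± 0.15 for GM501 and -0.17 ± 0.14 for SAGE.

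Klf4 ran from 6.01 to 6.79 in GM501 twins (median 6.14), from 5.48 to 6.51 in SAGE twins (median 6.11) and from 6.24 to 6.69 in controls (median 6.59). It was below every control in 7 of 10 GM501 twins and 7 of 10 SAGE twins. The differences were -0.26 ± 0.11 in GM501 twins (adjusted p = 0.0945) and -0.44 ± 0.12 in SAGE twins (adjusted p = 0.027). With centred arrays the first was -0.50 and was called (adjusted p = 0.0339, with a range of 0.00494 to 0.702 over its alternatives). Over pairs 7 to 10 the differences were -0.14 ± 0.14 and -0.62 ± 0.16, neither called.

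Tfcp2l1 (chr1:118627923-118685168), a Grainyhead-family gene, had 10.92 to 14.48 in GM501 twins (median 12.09), 10.06 to 14.18 in SAGE twins (median 12.21) and 12.47 to 14.07 in controls (median 13.49). The 6 GM501 twins of pairs 1 to 6 lay below every control and 2 of pairs 7 to 10 above every control. The gene fell by 1.19 ± 0.39 in GM501 twins (adjusted p = 0.0482) and by 1.30 ± 0.40 in SAGE twins (adjusted p = 0.0372). These calls were lost with 15 and 11 of the 20 single blastocysts left out (highest adjusted p = 0.0919 and 0.0722). Its difference was 0.019 ± 0.33 in GM501 twins of pairs 7 to 10 and -0.11 ± 0.29 in their SAGE sisters, and -1.99 ± 0.24 and -2.09 ± 0.31 in pairs 1 to 6.

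Esrrb (chr12:86361117-86521628), an orphan nuclear receptor gene, had a mean signal close to the filter's limit of 4.80. Its medians were 4.96 in GM501 twins (4.74 to 5.80), 4.94 in SAGE twins (4.56 to 5.32) and 5.17 in controls (4.73 to 5.49), with all groups overlapping. Neither difference was called, -0.11 ± 0.13 in GM501 twins (adjusted p = 0.515) and -0.23 ± 0.11 in SAGE twins (adjusted p = 0.134). With arrays centred the second was -0.48 and was called (adjusted p = 0.0151, with a range of 0.0151 to 0.651 over its alternatives).

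Prdm14 (chr1:13113428-13127163), a PR-domain gene that represses differentiation signals in mouse stem cells, was not called in either comparison. It had a median of 6.08 in GM501 twins (5.24 to 7.84), 5.29 in SAGE twins (4.46 to 6.37) and 5.90 in controls (4.70 to 7.38), and every range overlapped the others. The differences from controls were 0.26 ± 0.36 in GM501 twins (adjusted p = 0.596) and -0.67 ± 0.31 in SAGE twins (adjusted p = 0.118). By group mean its order was GM501 twins, controls, SAGE twins. For Klf2 it was GM501 twins, SAGE twins, controls, and for the other 8 factors controls, GM501 twins, SAGE twins.

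**Figure D2:**
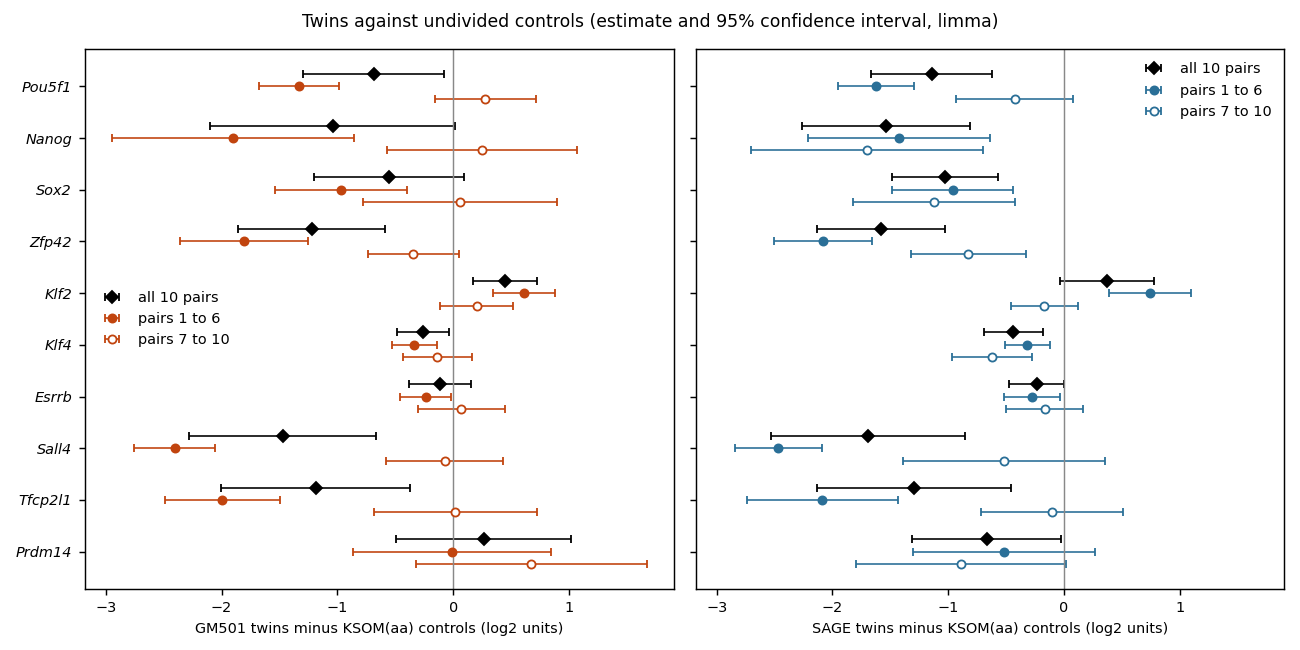
Difference in log2 signal of each factor, GM501 twins minus KSOM(aa) controls on the left and SAGE twins minus KSOM(aa) controls on the right, with limma's 95% confidence intervals. Black diamonds use all 10 pairs, filled circles pairs 1 to 6 and open circles pairs 7 to 10, each against the same 10 controls; Sall4 lies at -2.41 and -2.47 in pairs 1 to 6 and at -0.074 and -0.52 in pairs 7 to 10.

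Counted within the pair sets, calls among the factors were many in pairs 1 to 6 and absent in pairs 7 to 10, and calls among all genes were also far more frequent in pairs 1 to 6. Among GM501 twins of pairs 1 to 6, 8 factors were called, 7 lower and Klf2 higher, beside 59.4% of all genes, 21.1% lower and 38.3% higher. In SAGE twins of that set 9 were called, 8 lower and Klf2 higher, beside 58.8% of all genes, 19.9% lower and 38.9% higher. The groups did not overlap for 4 factors in GM501 twins of pairs 1 to 6 (Pou5f1, Zfp42, Sall4 and Tfcp2l1), beside 8.18% of genes wholly lower. In SAGE twins it was 3 factors (Pou5f1, Zfp42 and Sall4), beside 7.13%. In pairs 7 to 10 every factor overlapped the controls, beside 0.713% of genes wholly lower in GM501 twins and 1.37% in SAGE twins. For pairs 7 to 10 limma called 0 factors in GM501 twins, beside 1.32% of all genes. At an unadjusted p under 0.05 were 0 factors and 14.6% of genes. In their SAGE sisters it also called 0, beside 0.813% of all genes. At an unadjusted p under 0.05 were 4 factors (Nanog, Sox2, Zfp42 and Klf4) and 16.7% of genes. All 10 estimates were negative for SAGE in pairs 7 to 10, with a median of -0.57, and 7 of 10 were positive for GM501, with a median of 0.064. Over all genes these medians were -0.029 and -0.013.

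The comparison of co-twins asked whether the medium alone changed the factors, since sisters share a genome. limma called 0 factors here and 0 genes (0.0% of 18090, with 695 genes, 3.84%, at an unadjusted p under 0.05). Of the factors, 1 was at an unadjusted p under 0.05. All 10 estimates were positive, with a median of 0.29 against 0.007 over all genes. The sign was not shared by all pairs. The sisters of pair 8 differed for all 10 factors in that direction, with a median of 1.64, while the medians of the other 9 pairs lay between -0.095 and 0.49. Without pair 8, 8 of 10 estimates were positive, with a median of 0.11. Over pairs 1 to 6 alone, 6 of 10 estimates were positive, with a median of 0.052.

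Prdm14 had the largest estimate of the 10 factors. Within pairs 1 to 10 in turn, GM501 minus SAGE was 0.49, -0.09, 0.28, 0.80, 0.26, 1.29, 2.17, 1.74, 1.88 and 0.48 log2 units. Prdm14 was thus higher in the GM501 twin in 9 of 10 pairs, where 0.929% of all genes were higher in at least 9. Several of its SAGE signals lay below the median of their own array. These were 4.88 in pair 1 (array median 5.03), 4.97 in pair 4 (5.05), 4.94 in pair 8 (5.12) and 4.46 in pair 9 (4.57). In the other SAGE twins and in all GM501 twins Prdm14 lay above the array median. The mean was 0.93 ± 0.23 (SE, 10 pairs; 95% confidence interval 0.44 to 1.42), at a limma p of 0.00141 and an adjusted p of 0.824. It was 0.51 ± 0.18 in pairs 1 to 6 and 1.57 ± 0.30 in pairs 7 to 10.

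For Nanog the within-pair differences were -1.89, 1.06, -0.95, -1.63, 0.36 and 0.20 in pairs 1 to 6 and 1.39, 3.99, 1.20 and 1.22 in pairs 7 to 10. Their mean was 0.50 ± 0.48 with an interval of -0.54 to 1.53. Without pair 8 the mean was 0.11, with an interval of -0.72 to 0.93. Sox2 differed by -0.37, 0.75, 0.00, -0.59, 0.18 and 0.00 in pairs 1 to 6 and by 1.17, 1.53, 0.23 and 1.79 in pairs 7 to 10 (mean 0.47 ± 0.23, interval -0.034 to 0.97). Nanog, Sox2, Klf2 and Prdm14 were higher in the GM501 twin in all 4 pairs of 7 to 10. The share of all genes with that sign in those 4 pairs was not counted. Pou5f1 differed by 0.46 ± 0.23 (interval -0.039 to 0.95), or by 0.27 without pair 8, and in the other 6 factors the estimates lay between 0.072 for Klf2 and 0.36 for Zfp42, with intervals that held 0.

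Whether the medium difference itself differed between the sets was tested as an interaction in limma, over pairs 7 to 10 minus pairs 1 to 6. It passed for 0 factors and 0.0% of all genes, with 3 factors and 7.87% of genes at an unadjusted p under 0.05. These were Nanog at 2.42 ± 0.71 (adjusted p = 0.598), Sox2 at 1.19 ± 0.34 (adjusted p = 0.591) and Prdm14 at 1.06 ± 0.36 (adjusted p = 0.611). Without pair 8 they were 1.75, 1.07 and 1.00, and again 0 passed.

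**Figure D3:**
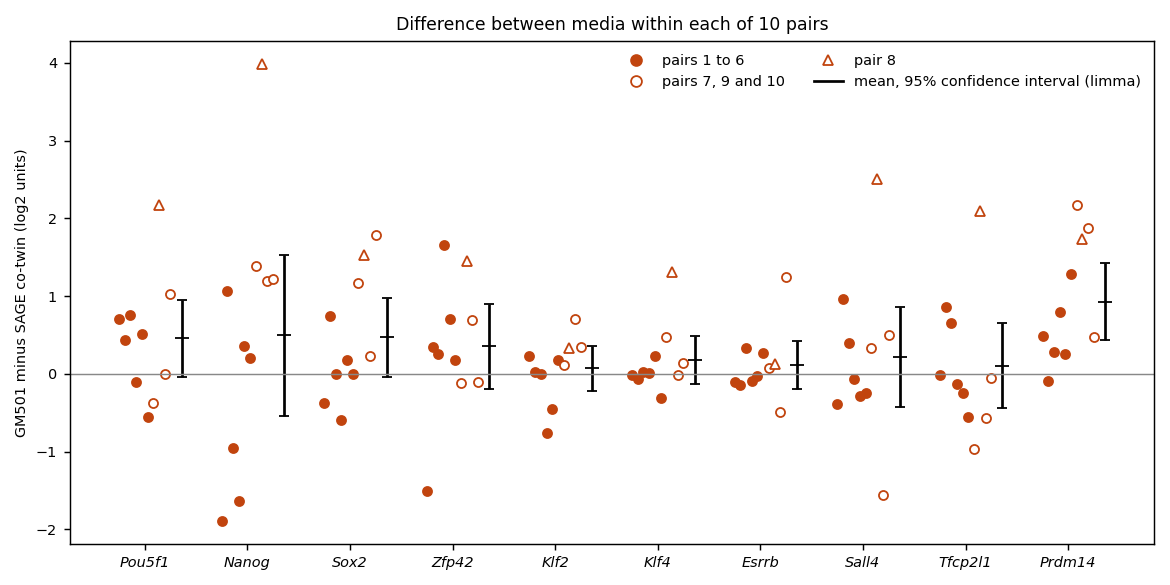
GM501 minus SAGE co-twin in log2 units for each factor, 1 point per pair in the order of pair number. Filled circles are pairs 1 to 6, open circles pairs 7, 9 and 10, the triangle pair 8, and bars the mean over 10 pairs with limma's 95% confidence interval; for Prdm14 9 of 10 points lie above 0, and in pair 8 all 10 factors do.

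Single blastocysts were described by the factors that lay outside the control range. Each blastocyst was scored by the number of factors below the lowest control, and a control by the number below the lowest of the other 9. The twins of pairs 1 to 6 had 4 to 7 such factors, and Pou5f1, Zfp42 and Sall4 were among them in every one of the 12. Among GM501 twins of pairs 7 to 10 it was 1, 0, 2 and 0 factors, and among their SAGE sisters 4, 8, 3 and 2. Controls had 0 to 3. The same count over all tested genes was not made, so these scores do not show whether the factors differ from other genes. The SAGE twin of pair 8 had the most, 8, leaving only Esrrb and Prdm14 within the control range. Its sister in GM501 had none below and 3 above the controls (Pou5f1, Klf4 and Tfcp2l1). The GM501 twin of pair 10 had 5 factors above every control: Pou5f1, Sox2, Esrrb, Sall4 and Tfcp2l1.

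The array medians moved with these scores. In the 12 twins of pairs 1 to 6 the array median lay between 4.81 and 5.28, and the median of the 10 factors, each taken minus its control mean, between -1.41 and -0.37. The SAGE twin of pair 8, with an array median of 5.12, had -1.31. The 7 other twins of pairs 7 to 10, with array medians of 4.57 to 4.67, ran from -0.38 to 0.48, and controls from -0.18 to 0.25 at array medians of 4.59 to 4.69. Over all tested genes the same median lay between -0.079 and 0.21 in every twin.

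**Figure D4:**
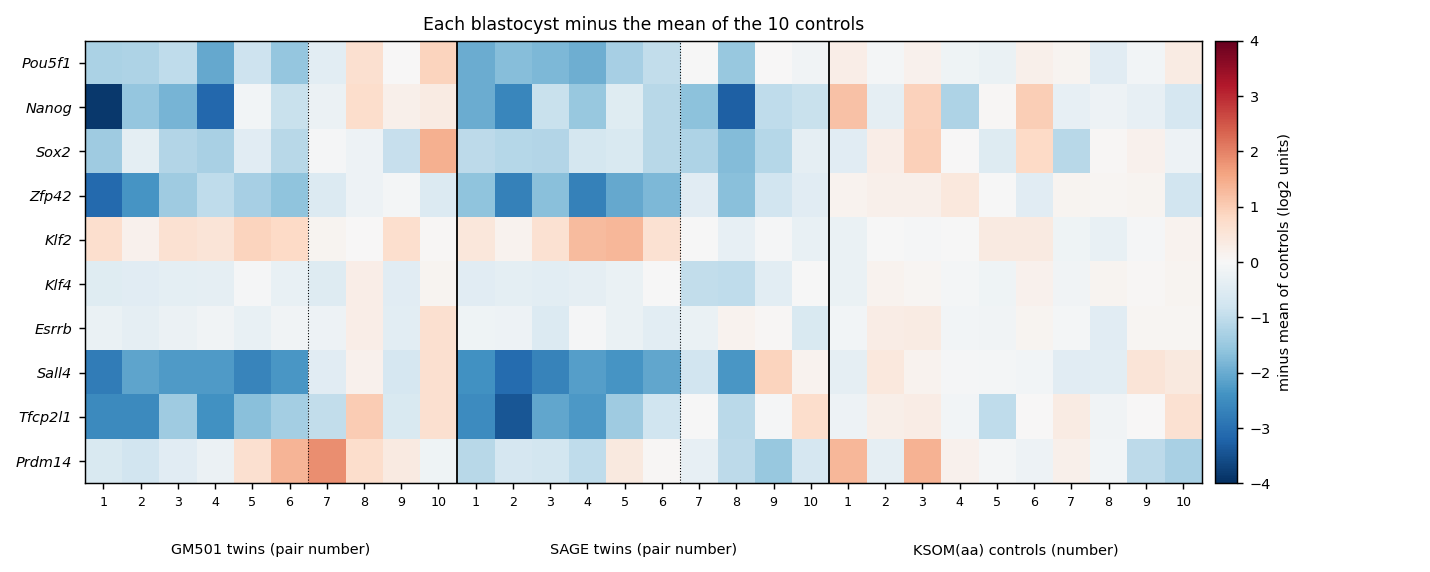
Signal of each factor in each of the 30 blastocysts minus the mean of the 10 controls, in log2 units, from blue (lower) to red (higher). Columns are GM501 twins, SAGE twins and KSOM(aa) controls by number, and dotted lines part pairs 1 to 6 from pairs 7 to 10; Klf2 is higher than the control mean in all 12 twins of pairs 1 to 6.

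**Figure D5:**
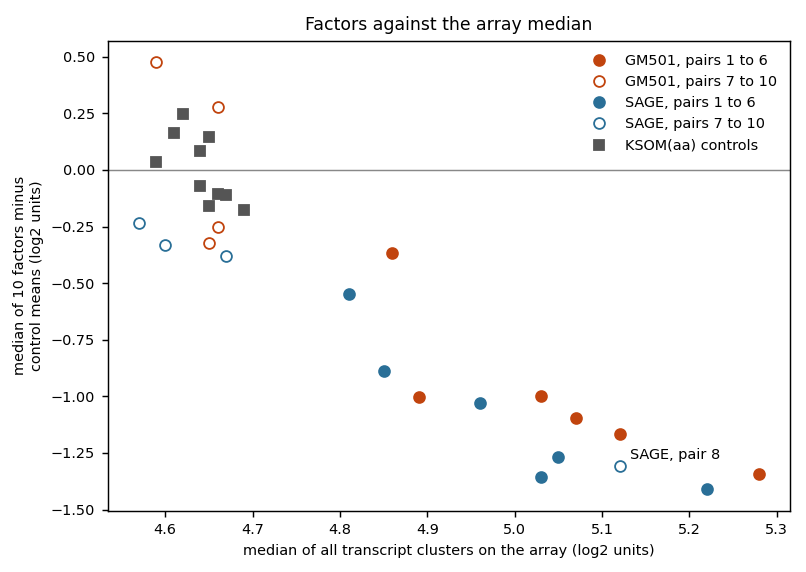
Median over the 10 factors of the signal minus the control mean (log2 units) against the median signal of all transcript clusters on the array (log2 units), 1 point per blastocyst. Filled circles are twins of pairs 1 to 6, open circles twins of pairs 7 to 10 and squares controls; the SAGE twin of pair 8 lies at 5.12 and -1.31, among the twins of pairs 1 to 6.

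Co-twins resembled each other in some factors over all 10 pairs, where sisters also shared a pair set. With medium in the model, limma's F test over the 10 embryos of origin called Pou5f1 (adjusted p = 0.0338), Klf2 (adjusted p = 0.0443), Sall4 (adjusted p = 0.0161) and Tfcp2l1 (adjusted p = 0.00602), 4 of 10 factors beside 26.4% of all genes. On centred arrays Klf2 was not called (adjusted p = 0.128, with a range of 0.0447 to 0.705 over its alternatives) and Zfp42 was (adjusted p = 0.0459, with a range of 0.0459 to 0.979), against 0.0591 for Zfp42 as deposited. Within pairs 1 to 6 it called 0 factors beside 0.243% of all genes, with 2 factors and 12.1% of genes at an unadjusted p under 0.05. Within pairs 7 to 10 it called 0 beside 0.0663%, with 1 factor and 8.82% of genes at an unadjusted p under 0.05. The calls over all pairs thus did not recur inside either set, where each fit had fewer pairs. Sall4 had an F of 0.54 in pairs 1 to 6 and 1.28 in pairs 7 to 10, and Pou5f1 of 1.75 and 0.66. For Klf2 these were 2.71 and 1.37, and for Tfcp2l1 8.00 and 1.09. Since sisters are always in the same set, embryo of origin and pair set cannot be told apart over all pairs.

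Over all 10 pairs, and so with the difference between the pair sets included, the SDs of several factors were larger among twins than among controls. Sall4 had an SD of 1.27 for the GM501 twins, 1.32 for the SAGE twins and 0.36 for the controls, and Pou5f1 of 0.95, 0.80 and 0.25. Tfcp2l1 had 1.25, 1.30 and 0.43, and Zfp42 0.96, 0.82 and 0.35. Over all genes the median SD was 0.46, 0.48 and 0.25. Within the sets the SDs were, GM501 twins first, as follows. For Sall4 they were 0.27 and 0.36 in pairs 1 to 6, and 0.59 and 1.39 in pairs 7 to 10. Pou5f1 had 0.43 and 0.39, then 0.59 and 0.74. Tfcp2l1 had 0.57 and 0.91, then 0.96 and 0.74, and Zfp42 had 0.77 and 0.50, then 0.24 and 0.58. A Levene-type limma test on distances from the group median called 0 factors in GM501 twins, beside 9.0% of all genes. At an unadjusted p under 0.05 were 4 factors and 32.1% of genes. In SAGE twins it called 1, Tfcp2l1, whose mean distance was larger by 0.76 ± 0.22 (adjusted p = 0.0478), beside 5.93% of genes. Within pairs 1 to 6 and within pairs 7 to 10 it called 0 factors in either medium, beside 0.193% and 0.0111% of genes for GM501 and 0.58% and 0.293% for SAGE.

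Not every factor had larger SDs in both media. Prdm14 had an SD of 0.87 for the GM501 twins, 0.57 for the SAGE twins and 0.87 for the controls, and Sox2 of 0.85, 0.38 and 0.61. In controls Prdm14, Nanog (0.79) and Sox2 stood at the 97.6th, 96.7th and 93.0th percentile of SDs over all genes, so that their signals already varied widely among undivided blastocysts. With 1 array per blastocyst, variation between embryos and variation of the measurement cannot be told apart. Nanog had an SD of 1.54 in GM501 twins and 0.87 in SAGE twins.

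The 10 controls do not fall into the sets and allowed a look at whether factors vary together among undivided embryos. Of 45 pairs of factors, 28 had a positive Pearson's r, the median r was 0.16, and 0 passed Benjamini-Hochberg adjustment over the 45 (2 at an unadjusted permutation p under 0.05 for r). The closest was Sox2 with Klf4, at r = 0.73 (permutation p = 0.0159, adjusted p = 0.465) and rho = 0.72 (p = 0.0215, adjusted p = 0.601), and r = 0.80 without the 2 controls farthest from the Sox2 median. Esrrb with Sall4 followed at r = 0.71 (permutation p = 0.0207, adjusted p = 0.465) and rho = 0.55 (p = 0.103, adjusted p = 0.601), and 0.70 without 2 controls. Nanog, Pou5f1 and Sox2 were also set against Gata6, the primitive endoderm regulator, and Cdx2, the trophectoderm regulator. Of these 6 pairs 0 passed, and for r 0 were at an unadjusted permutation p under 0.05. Pou5f1 with Cdx2 had r = 0.53 (permutation p = 0.112, adjusted p = 0.337) and rho = 0.67 (p = 0.0396, adjusted p = 0.238), and 0.82 without 2 controls. By r the strongest was Sox2 with Gata6, at r = -0.59 (permutation p = 0.074, adjusted p = 0.337) and rho = -0.55 (p = 0.106, adjusted p = 0.319), and -0.84 without 2 controls.

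Over the 30 arrays, with each gene centred within its group, 11267 named genes were ranked by r with each factor. The likeness is a description, since arrays share the differences in array median given above. Sall4 was most like Sympk and Jup (r = 0.96 and 0.95), Pou5f1 most like Ncaph2 and Trim28 (0.93 each), and Tfcp2l1 most like Atp5b and Ap2a2 (0.92 and 0.91). Zfp42 followed with Nbr1 and Dnajc13 (0.88 each). Nanog was most like Slc25a13 and Nsdhl (0.82 and 0.80), and Klf2 most like Pole3 and Emg1 (0.81 and 0.79). For Sox2 these were Manba and Scmh1 (0.73 each), for Klf4 Nelfe and Lap3 (0.73 and 0.71), for Esrrb Mcfd2 and Tut1 (0.71 and 0.70) and for Prdm14 Ccna2 and Yipf1 (0.68 and 0.67). Among controls alone, r with these genes ran from -0.035 for Zfp42 with Nbr1 to 0.87 for Sall4 with Sympk. Among the factors themselves, Pou5f1, Sall4 and Tfcp2l1 were closest, with r of 0.84 for Sall4 with Tfcp2l1 to 0.88 for Pou5f1 with Tfcp2l1. In the 10 controls alone r was 0.13 for Pou5f1 with Sall4, 0.33 for Sall4 with Tfcp2l1 and 0.56 for Pou5f1 with Tfcp2l1. Klf2 had negative r with these 3 over the 30 arrays, from -0.50 to -0.45, and in controls 0.17 with Pou5f1, 0.34 with Sall4 and -0.26 with Tfcp2l1.

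Other regulators of pluripotency were measured as a wider list, with 21 of 22 genes tested. In GM501 twins 5 were called lower and 1 higher, and in SAGE twins 5 were lower and 0 higher, at list medians of -0.20 and -0.28, against 0.11 over all genes in each comparison. Stat3, the effector of LIF, fell by 1.06 ± 0.23 (adjusted p = 0.0111), Sall1 by 0.80 ± 0.21 (adjusted p = 0.0224) and Nr5a2, a nuclear receptor gene, by 0.87 ± 0.26 (adjusted p = 0.0336) in GM501 twins. Dppa3 (Stella), a maternal and germline factor, rose there by 1.16 ± 0.27 (adjusted p = 0.015). In SAGE twins Tbx3 fell by 0.90 ± 0.18 (adjusted p = 0.00856), Sall1 by 1.01 ± 0.22 (adjusted p = 0.0108) and Trim28, a corepressor gene, by 1.80 ± 0.41 (adjusted p = 0.0127). For pairs 7 to 10 limma called 0 of the 21 in either medium.

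The LIF and STAT3 pathway had 9 genes tested, of which 3 were called lower in GM501 twins and 2 in SAGE twins, and 0 higher, at medians of -0.29 and -0.27. Stat3 stands in both lists. Lif, the ligand, fell by 0.90 ± 0.27 in GM501 twins (adjusted p = 0.0349) and by 0.96 ± 0.21 in SAGE twins (adjusted p = 0.00988). Its receptor gene Lifr fell by 1.65 ± 0.49 in GM501 twins (adjusted p = 0.0342), and Stat3 by 0.84 ± 0.27 in SAGE twins (adjusted p = 0.0432). Of 5 tested signals made by the epiblast, 0 were called in GM501 twins and 1 in SAGE twins, Tdgf1 (Cripto), a Nodal co-receptor, which fell by 1.95 ± 0.56 (adjusted p = 0.0279). Of 5 genes of the formative and primed epiblast, 0 were called in GM501 twins and 1 in SAGE twins, Dnmt3b, a DNA methyltransferase gene, which fell by 1.16 ± 0.34 (adjusted p = 0.0316). These 3 lists had no called gene in pairs 7 to 10 in either medium.

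Markers of the other lineages of the blastocyst were also counted. Of 11 tested trophectoderm markers 9 were called lower in GM501 twins and 7 in SAGE twins, 0 higher, at medians of -0.70 and -0.71. The mean of the list ran from 10.90 to 11.67 in GM501 twins, from 10.36 to 11.97 in SAGE twins and from 11.65 to 12.12 in controls. Cdx2 fell by 0.47 ± 0.15 in GM501 twins (adjusted p = 0.044) and by 0.71 ± 0.14 in SAGE twins (adjusted p = 0.00829). Gata2 fell by 0.70 ± 0.11 (adjusted p = 0.00139) and 0.61 ± 0.14 (adjusted p = 0.013) in the same order. Tfap2c and Krt18 fell by 0.73 ± 0.14 (adjusted p = 0.00472) and 0.38 ± 0.097 (adjusted p = 0.0203) in GM501 twins, and Tead4 by 0.95 ± 0.18 (adjusted p = 0.00774) in SAGE twins. Among GM501 twins of pairs 7 to 10, 1 of the 11 was called, Gata2, and among SAGE twins 0.

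Of 10 tested primitive endoderm markers 4 were called lower in GM501 twins and 4 in SAGE twins, 0 higher, at medians of -0.34 and -0.45. Their mean ran from 7.79 to 9.12 in GM501 twins, from 7.52 to 8.73 in SAGE twins and from 8.09 to 9.49 in controls. The laminin chain gene Lama1 fell by 2.65 ± 0.56 (adjusted p = 0.00964) and 2.61 ± 0.53 (adjusted p = 0.00856), and the receptor gene Cubn by 2.91 ± 0.68 (adjusted p = 0.015) and 2.85 ± 0.66 (adjusted p = 0.0129), GM501 twins first. Sparc fell by 0.84 ± 0.26 in GM501 twins (adjusted p = 0.0418). Gata4 fell by 0.48 ± 0.15 in SAGE twins (adjusted p = 0.0352), and its difference in GM501 twins was -0.41 ± 0.16 (adjusted p = 0.0786). Gata6 was not called, at -0.096 ± 0.21 (adjusted p = 0.742) and -0.42 ± 0.20 (adjusted p = 0.126). Pairs 7 to 10 had 0 of the 10 called. Of the markers of cumulus, oviduct and blood cells 3 passed the filter and 0 were called, with list means of 5.18 to 6.15 in GM501 twins, 5.33 to 6.29 in SAGE twins and 5.42 to 6.09 in controls. Between co-twins of the 2 media 0 genes of any list were called. The part of any other lineage in the factors' differences was not tested.

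Centring each array on its median moved the balance of all calls. In GM501 twins the split was 258 higher and 2285 lower, against 1232 and 1261 as deposited, and the median of all genes moved to -0.13 from 0.11 log2 units. In SAGE twins it was 260 and 3126, against 1356 and 1562, with a median of -0.13 after centring. Centring subtracts 1 value from each array, so within a comparison it lowered every gene's difference from controls by the same amount. No factor changed sign against controls under this setting, and those already lower could not have done so. More genes of some lists were then called lower: in GM501 twins 9 of the other pluripotency regulators, 5 of the LIF and STAT3 pathway and 7 primitive endoderm markers, and in SAGE twins 10, 5 and 7. Trophectoderm markers had 9 in GM501 twins, as before, and 8 in SAGE twins. The epiblast signals and the formative and primed genes each had 0 in GM501 twins and 2 in SAGE twins. Of the 10 factors, 4 were called lower in GM501 twins (beside 12.6% of genes lower) and 8 in SAGE twins (beside 17.3%). The median difference of the 10 factors moved by that same amount, to -0.86 in GM501 twins and -1.33 in SAGE twins, and is no separate check.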

How the data were processed

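Single blastocysts were measured on 30 Affymetrix arrays, 10 per group. The deposited values are log2 signals that the authors made with RMA in Affymetrix Expression Console on mm10, per the submitters' processing notes. Versions are not given in the sources used here, and the log base is inferred from the range of 2.2 to 19.3. Of 65956 transcript clusters, 30604 had 1 gene symbol and 2146 several; 827 symbols were updated through the gene ID. Each gene was read from its brightest cluster, and the 60% of genes with the highest mean over all arrays (18090, from 4.80 upward) were tested.

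limma 3.58.1 (R 4.3.3) fitted GM501 against SAGE with the pair as a block, because co-twins come from 1 embryo, and each twin group against the controls without one. Benjamini-Hochberg adjustment ran over all 18090 genes, with calls at an adjusted p under 0.05. The other limma tests, of embryo of origin, spread and the pair sets, used the same adjustment. Correlations among controls used 100000 permutations (scipy 1.17.1; Python 3.11.15, pandas 2.3.3, numpy 2.4.6, matplotlib 3.10.9). The limma fits were tested on simulated data drawn from the means and SDs of the controls. That simulation did not cover arrays that differ in their medians as the twins' arrays do. Arrays correlated at r of 0.93 to 0.99, and 0 were identical. Partners' deviations from their group means correlated at 0.16 to 0.70, above 0.1 in all 10 pairs, and 7 of 10 GM501 twins were closest to their own partner. The difference between the pair sets stayed in these deviations, so a positive r does not by itself check the pairing. The number of arrays limits the precision.

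The 10 factors and the gene lists were chosen with earlier results of these data known. Beyond the factors, the text names Cdx2, Gata4 and Gata6, up to 3 called genes of each list with the smallest p in each direction and comparison, and the 2 genes most like each factor. Alternatives were other filters, cluster means, centring, array weights, trend with robust eBayes, the block, the pair sets and each replicate left out.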

Additional observations from a re-analysis of the deposited data

Results flagged for a closer look

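Among the 30 sets of 10 values, 1 per factor and group, Dixon's test for a value far from its group marked 2, where chance marks about 1 in 20. Sox2 in the GM501 twin of pair 10 was 8.92 log2 units, with the nearest GM501 twin at 7.43. Tfcp2l1 in control 5 was 12.47, with the nearest control at 13.27. The cause was not tested for either.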

How the results depend on the processing

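The 4 factors called in GM501 twins against controls were 7 with array weights (beside 43.7% of all genes) and 8 in pairs 1 to 6 (beside 59.4%). They were 0 in pairs 7 to 10 (beside 1.32%) and 0 in pairs 7, 9 and 10 (beside 0.415%), a setting chosen after seeing the data. With 1 blastocyst left out they were 2 to 7 (beside 6.24% to 29.1% of genes). With the pair number as a replicate block, which pairs no control by origin, they were 3 in GM501 twins (beside 7.59% of genes) and 7 in SAGE twins (beside 10.6%). Without 1 blastocyst, Zfp42 and Sall4 were called in GM501 twins in 20 of 20 fits, Klf2 in 9 (adjusted p 0.0137 to 0.0605) and Tfcp2l1 in 5. Pou5f1 was called without the GM501 twin of pair 8 or 10, Sox2 without that of pair 10, and Klf4 without that of pair 8 or 10. The 7 called in SAGE twins were 9 with array weights (beside 49.1% of genes) and 6 to 7 with 1 blastocyst left out (beside 7.25% to 34.9%). They were 0 in pairs 7 to 10 (beside 0.813%) and 0 in pairs 7, 9 and 10 (beside 0.685%). Embryo of origin called 0 factors within each of these 3 subsets of pairs, 1 to 6, 7 to 10, and 7, 9 and 10 alone. Beside them it called 0.243%, 0.0663% and 0.0553% of genes. The spread test called 1 factor in GM501 twins on centred arrays (beside 7.26% of genes) and 4 on distances from the mean (beside 27.4%). In SAGE twins it called 0 on centred arrays (beside 1.89%) and 4 on distances from the mean (beside 26.3%). Within each of the same 3 subsets it called 0 in SAGE twins, beside 0.58%, 0.293% and 0% of genes. Between media 0 factors were called under any setting, with no replicate block included.

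These estimates changed sign. GM501 minus SAGE was -0.48 for Nanog, -0.005 for Sox2, -0.13 for Klf2 and -0.018 for Klf4 in pairs 1 to 6, -0.24 for Sall4 and -0.53 for Tfcp2l1 in pairs 7, 9 and 10, and -0.13 for Tfcp2l1 with array weights. With 1 pair left out it ran from -0.0056 (without pair 10) to 0.19 for Esrrb, from -0.039 (without pair 8) to 0.41 for Sall4 and from -0.11 (without pair 8) to 0.23 for Tfcp2l1. GM501 minus KSOM was 0.28 for Pou5f1, 0.25 for Nanog, 0.059 for Sox2, 0.07 for Esrrb and 0.019 for Tfcp2l1 in pairs 7 to 10, 0.16, 0.093 and 0.15 for Pou5f1, Nanog and Sox2 in pairs 7, 9 and 10, and -0.011 for Prdm14 in pairs 1 to 6. SAGE minus KSOM was -0.17 for Klf2 in pairs 7 to 10, and -0.12 for Klf2, 0.088 for Sall4 and 0.22 for Tfcp2l1 in pairs 7, 9 and 10. Of the alternatives for single factors, 233 of 290 for GM501 against controls, 258 of 290 for SAGE against controls and 180 of 190 between media kept direction and side of the threshold. The pair sets hold fewer arrays than the groups, and the cause of the sign changes was not tested.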
